A study of Mus musculus with 44 samples.

Results

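The genes described here encode the proteins of the mitochondrial ribosome. They were taken as every row of the expression table whose symbol begins with Mrpl or Mrps followed by a number, which gave 77 of the 8203 genes measured. By their subunit in the mammalian mitoribosome, 50 encode proteins of the large subunit and 26 encode proteins of the small subunit. The remaining gene, Mrps36, carries a mitoribosomal name, but its product is now known as a component of the alpha-ketoglutarate dehydrogenase complex. Mrps18a and Mrps30 were counted with the large subunit, where their products sit despite their names.

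The mitochondrial ribosome translates the few messages that the mitochondrial genome encodes, all of them subunits of the respiratory chain complexes and of ATP synthase. All of its proteins are encoded in the nucleus, translated on cytosolic ribosomes and imported, so their messages can be caught on the tagged cytosolic ribosomes used here. Many have a counterpart in bacterial ribosomes, and the others are specific to mitochondria. In neurons, which rely on oxidative phosphorylation for much of their ATP, loss of individual mitoribosomal proteins impairs respiration.

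The data are ribosome-associated mRNA of Crh neurons of the central amygdala (CeA), measured by translating ribosome affinity purification and RNA-seq (TRAP-seq) in 44 adult Crh-TRAP mice, each a separate sample. All mice were first-generation progeny heterozygous for a Crh-Cre transgene and for a Cre-dependent eGFP-L10a ribosome tag at Rosa26, so the tagged cells are those in which the Crh promoter fragment of the transgene drives Cre. Tone alone (TA) mice, 10 males and 6 females, heard the tones with the shock generator off. Fear conditioned (FC) mice, 6 males and 6 females, received 5 pairings of tone and shock. Extinction (EXT) mice, 10 males and 6 females, received the same pairings and heard 30 tones without shock in another context on the following day. EXT mice were therefore sacrificed a day later than TA and FC mice, and the day of sacrifice and extinction cannot be told apart. Tissue came from bilateral amygdala punches of 1 mm.

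Several libraries stood apart before any comparison. The mice were run in 5 experimental batches, and batch 3 with 5 mice and batch 4 with 1 mouse held EXT mice only. In these 6 mice the 8 mitochondrially encoded transcripts of the table summed to 6533 to 42617 cpm (reads scaled to a common library size), with a median of 30060, against a median of 846 in the other 38 mice. EXT mouse 1 of batch 2 reached 31319, while the next highest of the other mice stood at 9756. Effective library sizes were 14649837 to 20440351 reads in TA, 13431032 to 19257786 in FC and 12802113 to 17805609 in EXT. The lowest read count of any mitoribosomal gene in any mouse was 126.

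Of 10 CeA neuron markers, 9 were in the table, among them Crh, Gad1, Gad2 and Prkcd, and their summed level was 2837 to 6629 cpm in TA, 2971 to 7256 in FC and 1393 to 7281 in EXT. Markers of other cells were present too. The 4 choroid plexus markers in the table, of 9 looked for, summed to 187 to 27465 cpm in TA, 673 to 19373 in FC and 186 to 51048 in EXT. Of 8 oligodendrocyte markers, 7 were present at 1365 to 6221 cpm in TA, 1649 to 17975 in FC and 1817 to 13237 in EXT. All 8 astrocyte markers were present, summing to 218 to 1285 cpm in TA, 283 to 1017 in FC and 310 to 1327 in EXT. No endothelial marker of 4 was in the table. The part of these cells in the results that follow was not tested. In a pulldown of this kind, fewer tagged cells and less RNA per cell cannot be told apart.

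The promoters of the genes are shown first because nuclear genes for mitochondrial proteins are known to carry sites for ETS-family factors, NRF1 and YY1. RefSeq promoter windows of mouse build GRCm38.p6, from 250 bases before to 50 bases after the start site, matched 68 of the 77 genes. An ETS motif, CCGGAAG on either strand, was in 25 of these 68 windows (36.8%), against 21.7% of 6393 windows of genes in the table and 9.93% of all 27025 windows. The YY1 motif AAGATGGCG was in 8 windows (11.8%), against 4.41% and 1.64%. The NRF1 motif TGCGCATGC was in 6 windows (8.82%), against 4.0% and 1.72%. Such a match describes letters in a window and is not evidence of binding. Printed below are the stretches from 130 bases before to 30 bases from the start site for 3 of the 6 genes with the smallest p in EXT vs. TA, those whose motif fell inside the stretch, each on the coding strand with the motif in capitals. For Mrpl33 (chr5:31613821-31613980, plus strand) the capitals mark an ETS motif that spans the start site. For Mrps21 (chr3:95871485-95871644, minus strand) they mark an ETS motif read on the opposite strand, downstream of the start site. For Mrpl32 (chr13:14613008-14613167, minus strand) they mark NRF1 motifs, of which the left-hand pair overlap on opposite strands.
Mrpl33: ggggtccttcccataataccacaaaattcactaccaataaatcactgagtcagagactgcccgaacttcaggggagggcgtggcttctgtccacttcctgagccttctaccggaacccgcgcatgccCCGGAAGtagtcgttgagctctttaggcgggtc
Mrps21: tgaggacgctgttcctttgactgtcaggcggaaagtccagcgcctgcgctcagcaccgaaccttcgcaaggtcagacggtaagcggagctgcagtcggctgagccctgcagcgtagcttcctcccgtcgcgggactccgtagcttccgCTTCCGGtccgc
Mrpl32: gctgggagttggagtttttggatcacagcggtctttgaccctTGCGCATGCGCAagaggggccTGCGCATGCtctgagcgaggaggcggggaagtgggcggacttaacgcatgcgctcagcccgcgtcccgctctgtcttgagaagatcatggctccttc

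Mitoribosomal genes were moderately abundant on the tagged ribosomes, with a median over the genes of 1564 reads per mouse. Per kilobase of coding length the highest mean log2 level over the 44 mice was 9.37 for Mrpl42, followed by 9.11 for both Mrpl20 and Mrpl51. All of these encode large subunit proteins. The lowest were Mrps18b at 4.27, Mrps27 at 4.67 and Mrps31 at 4.81, all of the small subunit. The medians over the genes of each subunit lay close together, at 7.41 for the large and 7.24 for the small subunit. Ribosome-associated message was thus uneven across the genes of a single complex.

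**Figure D1:**
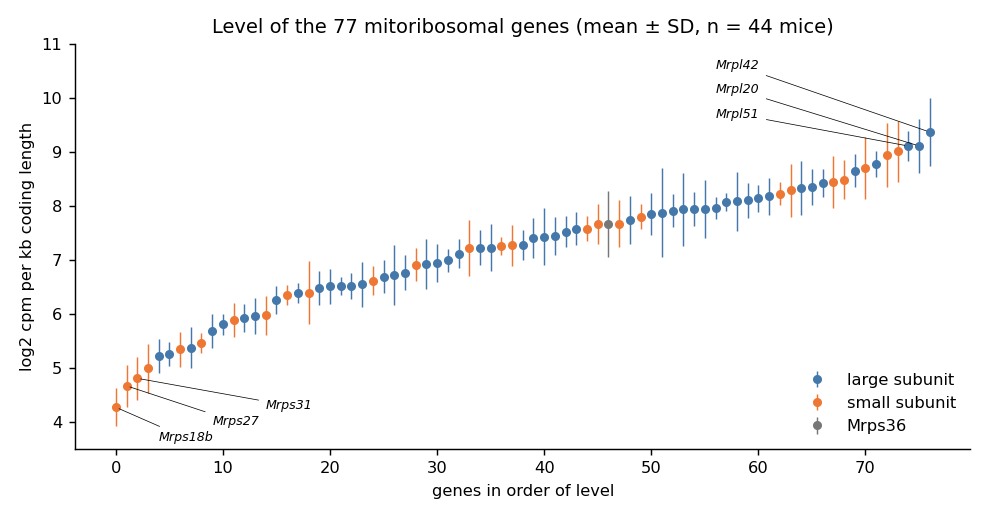
Mean log2 cpm per kilobase of coding length of the 77 mitoribosomal genes (vertical axis), in order of level along the horizontal axis, with bars for the SD over 44 mice and colours for the subunit. Genes of both subunits run through the whole order, with Mrps18b lowest at 4.27 and Mrpl42 highest at 9.37.

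With each factor taken alone, the experimental batch went with the largest share of the variation between mice. Batch accounted for a median of 61.3% of the variance of a mitoribosomal gene's log2 level, against 41.5% for all 8203 genes. The group accounted for 4.20%, against 7.93% for all genes, and sex for 9.40%, against 3.86%. Batch was tied to group and sex and has more levels than either, so these shares are not separate parts of a whole. For 55 of the 77 genes batch took more than 50% of the variance, as for 2985 of all 8203 genes. The same held for 69 of 78 cytosolic ribosomal protein genes and 69 of 91 nuclear-encoded oxidative phosphorylation genes. Median shares in these classes were 78.7% and 69.3% for batch, and 17.0% and 12.0% for sex, so neither trait was particular to mitoribosomal genes. Among the 77 genes batch took 90.0% for Mrpl33 and 87.5% for Mrpl32, both small proteins of the large subunit. It took 11.3% for Mrpl45, whose product anchors the ribosome at the inner membrane. The SD over all mice ran from 0.16 on the log2 scale for Mrps23 to 0.82 for Mrpl33.

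Batch 1, with 9 of its 11 mice female, held the lowest levels. Among TA mice alone, 70 of 77 mitoribosomal genes were lower in batch 1 (n = 4) than in batch 5 (n = 7), with a median log2 difference of -0.54. Mrpl33 differed most, by -2.03, followed by Mrpl34 with -1.66 and Mrps36 with -1.36. At the other end, Mrps27 was higher in batch 1 by 0.60. The same contrast gave -0.90 for 91 nuclear-encoded oxidative phosphorylation genes and -1.23 for 78 cytosolic ribosomal protein genes, which were also lower in batch 1.

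Within EXT, the 6 mice of batches 3 and 4 also had less mitoribosomal message than the other 10, with 63 of 77 genes lower and a median log2 difference of -0.35. Mrps6 (-0.93), Mrpl15 (-0.85) and Mrpl41 (-0.81) were furthest below. Mrpl42 (0.45), Mrps24 (0.18) and Mrps18c (0.17) were higher in those mice. Here the neighbouring gene classes did not move together. Oxidative phosphorylation genes were lower in the same contrast (-0.27), cytosolic ribosomal protein genes were higher (0.47) and mitochondrially encoded transcripts were higher by 4.52. The content of cell markers differed in the same 6 mice. Summed CeA neuron markers had a median of 1825 cpm there against 4563 in the other 38 mice of all groups, oligodendrocyte markers 6946 against 3173, astrocyte markers 1105 against 611 and choroid plexus markers 1054 against 3782, and their part in the lower levels was not tested. Because no TA or FC mouse shared these batches, their levels and extinction cannot be told apart.

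**Figure D2:**
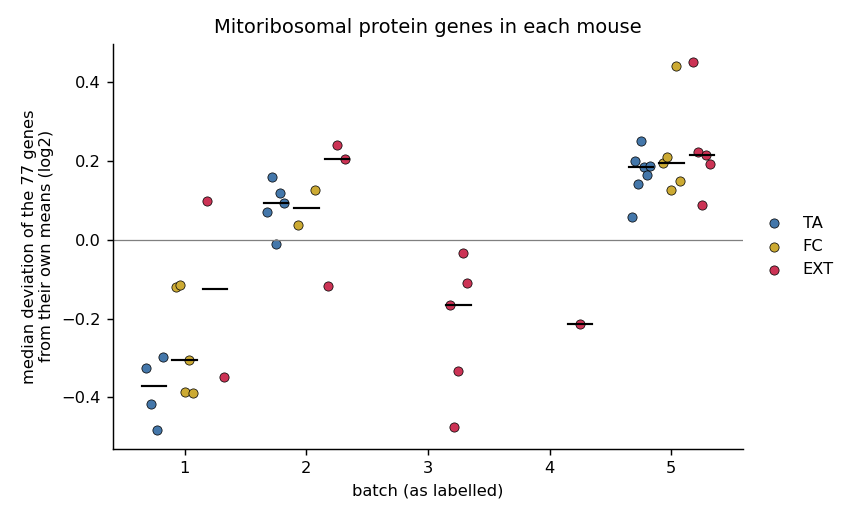
Median deviation of the 77 mitoribosomal genes from their own means over 44 mice (log2, vertical axis) in each mouse, by batch (horizontal axis) and group (colour), with a bar at each median of a batch and group. Batch 1 lies below 0 apart from EXT mouse 6 at 0.098, batch 5 lies above 0 in all 3 groups, and the EXT mice of batches 3 and 4 all lie below 0.

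The first comparison asked which messages differed after extinction from those after tones alone. With batch and sex in the model, 61 of 77 mitoribosomal genes were higher in EXT (n = 16) than in TA (n = 16). The median log2 fold change of the 77 genes was 0.10, against 0.01 for all genes. No mitoribosomal gene was FDR-significant with limma, the lowest FDR-adjusted p being 0.137, against a background of 0.0244% of all genes (2 genes, both lower). At an unadjusted p under 0.05, 20 were higher, where 10.2% of all genes were, and 1 was lower, where 11% of all genes were. TA mice occurred only in batches 1, 2 and 5, so with batch as categories the fold changes rest mainly on the 10 EXT mice of those batches. The 5 mice of batch 3 enter only through the sex term and the spread between mice. The 1 mouse of batch 4 is fitted by its own batch term and adds nothing.

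Both subunits were shifted to a similar degree. Of the 50 large subunit genes 38 were higher, 14 of them at an unadjusted p under 0.05, with a median of 0.10. Of the 26 small subunit genes 22 were higher, 5 of them at that threshold, with a median of 0.09. Among the 48 genes with a bacterial homolog 40 were higher (median 0.10), and among the 28 mitochondria-specific genes 20 were higher (median 0.08).

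The gene with the smallest p was Mrpl33, which encodes a small protein of the large subunit. Its log2 level ran from 3.80 through a median of 5.77 to 6.11 in TA, and from 4.54 through 6.05 to 6.41 in EXT. The ranges overlapped widely, and in both groups batch 1 lay far below the other batches. Outside batch 1 the ranges also overlapped, at 5.50 to 6.11 in TA and 5.17 to 6.41 in EXT. Inside batch 1 they did not overlap, with 3.88, 3.88, 3.80 and 4.03 in the TA mice and 4.54 in both EXT mice. Inside batch 2 the TA mice had 5.68, 5.86, 5.50, 5.77 and 5.74, and the EXT mice 6.13, 6.17 and 6.34. Inside batch 5 the difference of means was smaller, at 0.14, and the groups overlapped. The fitted log2 fold change was 0.37 (SE 0.09, FDR-adjusted p = 0.137, limma), and 13 of 16 EXT mice lay above the TA median. The gene shares exon bases on the same strand with the predicted gene Gm43809, and reads could be split between them.

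Mrps18c encodes a small subunit protein and is a paralog of Mrps18a and Mrps18b. Its log2 level was 4.79 at the lowest, 6.02 at the median and 6.45 at the highest in TA, and 5.39, 6.39 and 6.64 in EXT. The EXT median lay above the TA median, and the ranges overlapped. Differences of means inside batches 1, 2 and 5 were 0.68, 0.34 and 0.21, and the fitted log2 fold change was 0.36 (SE 0.09, FDR-adjusted p = 0.143). It shares exon bases with the predicted gene Gm43511 on the same strand.

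Of the paralogs, Mrps18a was higher in EXT by 0.21 on the log2 scale (SE 0.09, unadjusted p = 0.0321), with 14 of 16 EXT mice past the median of TA. For Mrps18b, of the small subunit, the difference was 0.07 (SE 0.08, unadjusted p = 0.397). The difference between the paralogs themselves was not tested.

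Mrps21, of the small subunit, had the largest fitted difference of the 6. Its log2 level was 5.75, 7.05 and 7.51 in TA at the lowest, median and highest mouse, and 6.24, 7.43 and 7.72 in EXT. The groups overlapped, and EXT mouse 3 of batch 3 at 6.35 stood well below the other mice of its batch, which had 7.32 to 7.65. That mouse was the lowest of batch 3 in each of the 6 genes with the smallest p. The fitted log2 fold change was 0.37 (SE 0.13, FDR-adjusted p = 0.149), with differences of 0.64, 0.62 and 0.07 inside batches 1, 2 and 5.

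Mrpl48 and Mrpl32, both of the large subunit, differed by less. Their SEs were small once batch was fitted, although their levels spread widely between batches. Mrpl48 ran through 6.27, 7.27 and 7.45 in TA and 6.66, 7.42 and 7.62 in EXT at the lowest, median and highest mouse, a fitted difference of 0.23 (SE 0.07, FDR-adjusted p = 0.143). Mrpl32, whose product is processed by the mitochondrial m-AAA protease before assembly, ran through 4.66, 6.06 and 6.26 in TA and 4.80, 6.27 and 6.47 in EXT. Its fitted difference was 0.22 (SE 0.08, FDR-adjusted p = 0.149), and its differences of means were the most even across batches, with 0.24, 0.22 and 0.20. Single mice were less even. In batch 1 EXT mouse 6 had 5.34, while EXT mouse 7 at 4.80 lay within the TA range of 4.66 to 4.94. Exons of Mrpl48 overlap those of Rab6a on the opposite strand, and pseudogene copies of Mrpl48 exist, so its reads are less certain.

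Mrps24, of the small subunit, completed the set of 6 genes with the smallest p. Levels were 5.66, 6.69 and 7.06 in TA and 6.08, 6.97 and 7.56 in EXT, again with overlap. The fitted difference was 0.29 (SE 0.11, FDR-adjusted p = 0.165), and the differences inside batches 1, 2 and 5 were 0.53, 0.35 and 0.14. Each of these 6 genes exceeded the TA median in 13 of 16 EXT mice, and each had a positive fold change in all 17 alternative fits. The genes were chosen for their p in these same mice, so neither count is separate evidence for them. Counts of mice against the TA median also take no account of batch.

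**Figure D3:**
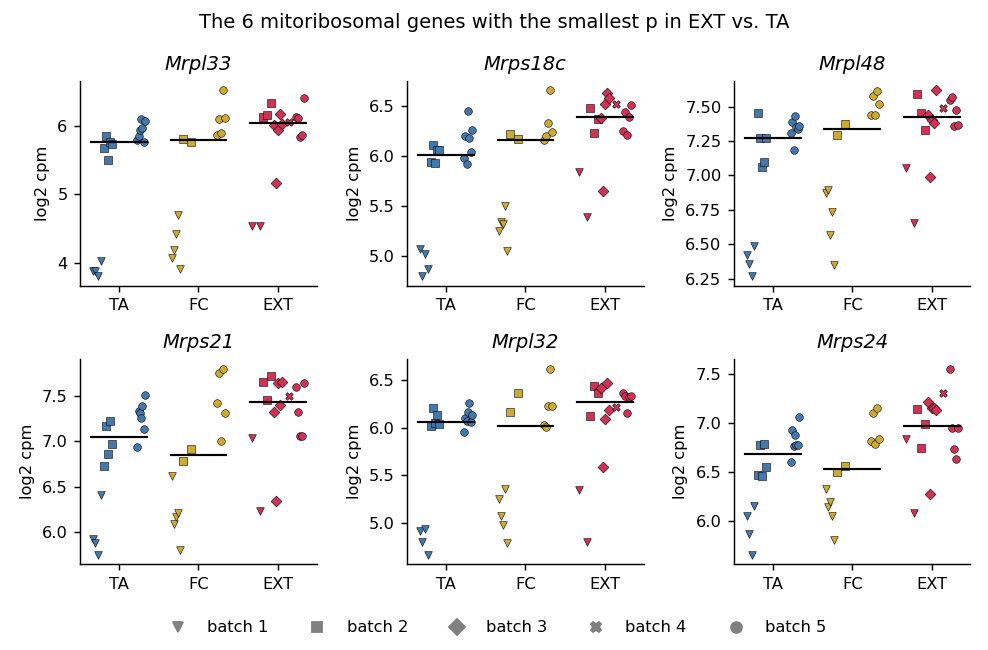
Log2 cpm (vertical axes) of the 6 mitoribosomal genes with the smallest p in EXT vs. TA in each of 44 mice, by group (horizontal axes and colours) and batch (marker shapes), with a bar at each group median. Most mice of batch 1 and EXT mouse 3 of batch 3 lie low in their group, with EXT mouse 6 of batch 1 at 6.84 for Mrps24 as an exception, and in every panel the EXT median lies above the TA median, as for Mrpl33 with 6.05 against 5.77.

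The single gene lower in EXT at an unadjusted p under 0.05 was Mrpl1, which encodes the large subunit protein of the L1 stalk. Its log2 fold change was -0.24 (SE 0.11, unadjusted p = 0.0322, FDR-adjusted p = 0.201), and 1 of 16 EXT mice lay above the TA median. EXT mouse 1 of batch 2, the mouse with many mitochondrial transcripts, had the lowest level of any mouse, at 4.11 against 5.42 and 5.39 in the other EXT mice of that batch.

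By role, genes of the functional centres of the ribosome were picked whatever their values, and are set here beside the family median of 0.10. The L7/L12 stalk, which recruits the translation factors, is formed by the products of Mrpl12, Mrpl10 and Mrpl11, whose log2 fold changes were 0.10 (SE 0.09), 0.10 (SE 0.08) and 0.13 (SE 0.07). Of the decoding centre, Mrps12 had 0.17 (SE 0.09) and Mrps5 had -0.12 (SE 0.09). Core genes of the large subunit were at -0.17 (SE 0.11) for Mrpl3 and -0.01 (SE 0.06) for Mrpl4. None of these 7 passed an unadjusted p of 0.05.

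Among the genes whose human counterparts cause mitoribosome deficiency, Mrps16 was higher by 0.17 (SE 0.08, unadjusted p = 0.0463). Its sign turned with the batch number as a linear covariate (-0.016) and with no batch term (-0.013), and it ranged from -0.030 to 0.31 over the 17 alternative fits. Mrps2 (0.07, SE 0.07), Mrps7 (0.10, SE 0.08), Mrps22 (-0.09, SE 0.11), Mrps34 (0.06, SE 0.09) and Mrpl44 (0.03, SE 0.08) did not pass that threshold. Mrpl45, the membrane anchor, was at -0.04 (SE 0.08). Mrps30 was even between the groups, with a log2 fold change of -0.0007 (SE 0.07). Mrps36 was higher by 0.27 (SE 0.11, unadjusted p = 0.0244).

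The shift was uneven across batches and mice, and the number of genes with a small p, though not the median, depended on library size. The median log2 difference of the 77 genes between EXT and TA was 0.23 inside batch 1 (2 EXT and 4 TA mice, 69 of 77 higher), 0.01 inside batch 2 (3 and 5 mice, 42 of 77) and 0.08 inside batch 5 (5 and 7 mice, 62 of 77). Without EXT mouse 6 of batch 1 the median was 0.06 and the number of genes at an unadjusted p under 0.05 fell from 21 to 7, and without EXT mouse 4 of batch 5 it was 12. All genes at that threshold were not counted in these fits, so the counts describe the setting and not the family. Leaving out EXT mouse 3 of batch 3 made 5 of the 77 genes FDR-significant, all higher, namely Mrps21, Mrpl33, Mrps18c, Mrpl48 and Mrpl32. In that fit 472 of all 8203 genes were FDR-significant, so the 5 genes make up about the share found among all genes. Without batches 3 and 4 and EXT mouse 1, the median was 0.14, 70 genes were higher, and Mrpl33 (0.36) and Mrps18c (0.34) were FDR-significant (FDR-adjusted p = 0.0466 for both), where 0.561% of all genes were higher and 1.0% lower at that threshold. Library sizes had a median of 18015590 reads in TA and 15412341 in EXT, and with the log2 library size as a covariate 2 genes, both higher, rather than 21 were at an unadjusted p under 0.05 and the median was 0.10. In that fit the share of all genes at the same threshold was 1.79% higher and 2.89% lower.

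The fold changes also depended on how batch was coded. The study controlled for batch without stating whether the batch number was a category or a number. With the number as a linear covariate, 11 of the 77 mitoribosomal genes passed FDR correction in EXT vs. TA. Of these, 6 were higher, where 10.4% of all genes were, and 5 were lower, where 11% of all genes were. In both directions this was a smaller share than among all genes. The genes that rose in that fit were Mrps18c (0.44, SE 0.12), Mrpl42 (0.55, SE 0.17), Mrps21 (0.40, SE 0.14), Mrps24 (0.37, SE 0.11), Mrpl18 (0.32, SE 0.10) and Mrpl48 (0.27, SE 0.10). Those that fell were Mrps31 (-0.44, SE 0.13), Mrps5 (-0.34, SE 0.10), Mrpl3 (-0.33, SE 0.11), Mrpl1 (-0.28, SE 0.10) and Mrpl38 (-0.26, SE 0.09). All 11 had the same sign with batch as categories, where 7 of them passed an unadjusted p of 0.05, but both fits use the same mice.

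The direction of the whole family, in contrast, rested on the coding. The median log2 fold change was -0.03 with the batch number as a linear covariate, and 33 of 77 genes rather than 61 were higher. For 28 genes the sign was positive with batch as categories and negative with the number, and for no gene was it the other way round. With the linear covariate the EXT mice of batches 3 and 4, low in most mitoribosomal genes, count toward the fold change. When those batches were left out, the linear covariate gave a median of 0.11 and 64 of 77 genes higher.

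**Figure D4:**
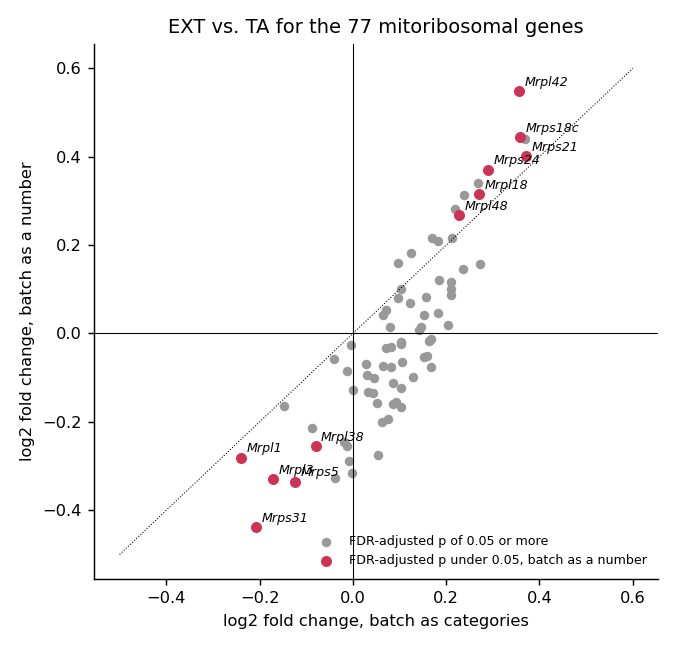
Log2 fold change in EXT vs. TA of each mitoribosomal gene with batch as categories (horizontal axis) and with the batch number as a linear covariate (vertical axis). The 28 genes to the right of 0 and below 0 changed sign, and the median moves from 0.10 to -0.03.

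After fear conditioning itself, mitoribosomal genes were higher than after tones alone by a small margin. In FC (n = 12) vs. TA (n = 16), 65 of 77 were higher and the median log2 fold change was 0.07, against -0.0041 for all genes. None was FDR-significant with limma (lowest FDR-adjusted p = 0.127), where 0.0% of all genes were. At an unadjusted p under 0.05, 7 were higher, against 8.61% of all genes, and none was lower, against 8.2%. The 7 genes thus make up about the share found among all genes, and the shift lies in the number of genes with a positive sign.

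The genes with the smallest p in FC vs. TA were Mrps18c, Mrpl48, Mrpl18, Mrpl33, Mrpl32 and Mrps10. Mrps18c ran through 5.04, 6.16 and 6.66 in FC at the lowest, median and highest mouse, and its fitted difference was 0.23 (SE 0.07, FDR-adjusted p = 0.127). Mrpl48 ran through 6.35, 7.34 and 7.61 and differed by 0.20 (SE 0.06, FDR-adjusted p = 0.131). Both overlapped TA over most of their range. Mrpl18, of the large subunit, differed by 0.19 (SE 0.07), Mrpl33 by 0.22 (SE 0.08), Mrpl32 by 0.18 (SE 0.07) and Mrps10 by 0.19 (SE 0.07). The EXT and FC comparisons share the TA mice, so a gene that appears in both does not appear there independently. The median over the 77 genes was 0.14, 0.01 and 0.06 inside batches 1, 2 and 5, and with the batch number as a linear covariate it was 0.04, with 1 gene higher and 1 lower at an unadjusted p under 0.05, against 4.22% and 6.18% of all genes.

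Between EXT and FC no mitoribosomal gene differed at an unadjusted p under 0.05, against 2.22% of all genes higher and 1.97% lower. None was FDR-significant, as for all genes (0.0%). The sign was positive for 60 of 77 genes, with a median log2 fold change of 0.06 against 0.01 for all genes. The smallest p belonged to Mrpl54, a large subunit gene, at 0.26 (SE 0.14, unadjusted p = 0.0802, FDR-adjusted p = 0.975). Its log2 level ran through 5.91, 6.71 and 7.33 in FC and 5.97, 6.90 and 7.37 in EXT. Next were Mrpl1 (-0.22), Mrps24 (0.21), Mrps21 (0.24), Mrps12 (0.17) and Mrps18c (0.15). The sign of the median did not hold under other settings, being -0.07 with the batch number as a linear covariate and -0.0028 with library size as a covariate.

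Sex was taken from the labels. Between 18 females and 26 males no mitoribosomal gene was FDR-significant (0.0% of all genes), and at an unadjusted p under 0.05 none was higher in females (2.05% of all genes) and 2 were lower (2.08% of all genes). These were Mrpl17, of the large subunit, at -0.17 (SE 0.07, unadjusted p = 0.0253), and Mrpl1 at -0.20 (SE 0.09, unadjusted p = 0.0295). The third smallest p was that of Mrpl32, at -0.10 (SE 0.07, unadjusted p = 0.148), and the median over the 77 genes was -0.02. Without the batch term the median was -0.19, and 37 genes were lower and 2 higher in females at an unadjusted p under 0.05, against 15.2% and 13.5% of all genes. Of the 18 females 9 belonged to batch 1, where mitoribosomal message was low.

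The effect of conditioning was compared between the sexes with an interaction term. For FC vs. TA the term was positive, meaning a larger fold change in females, for 60 of 77 genes, with a median of 0.15. At an unadjusted p under 0.05 it was positive for 14 genes, against 6.52% of all genes, and negative for none, against 3.1%. The term was not particular to the family. It was positive at that threshold for 45 of 91 oxidative phosphorylation genes, with a median of 0.31. The smallest p values belonged to Mrpl34 (0.57, SE 0.14), Mrpl42 (0.51, SE 0.15) and Mrps21 (0.56, SE 0.17), but none was FDR-significant (lowest FDR-adjusted p = 0.30). For EXT vs. TA the median was 0.09, and the term passed an unadjusted p of 0.05 for Mrpl37 alone (0.27, SE 0.13), against 2.71% of all genes positive and 3.32% negative. Fitted within each sex, the median fold change of the 77 genes in EXT vs. TA was 0.07 in males and 0.23 in females, and in FC vs. TA 0.02 in males and 0.17 in females. Batch 1 held 4 of 6 FC females and 3 of 6 TA females but 1 male of each group, and its 2 EXT mice were female. A fold change that differs by sex and one that differs in batch 1 are therefore confounded in part. Batch 5 held both sexes in every group, but whether the term held outside batch 1 was not tested.

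Other genes of the mitochondrial gene expression system had medians near or below 0 in EXT vs. TA with batch as categories. Of 13 mitochondrial translation factors that were measured, 4 were higher and the median log2 fold change was -0.02. At an unadjusted p under 0.05, 3 were lower, namely Lrpprc (-0.40, SE 0.13), which stabilises mitochondrial messages, Tufm (-0.35, SE 0.11), the elongation factor Tu, and Gfm1 (-0.35, SE 0.15), an elongation factor G. Slirp, the partner of Lrpprc, was higher (0.23, SE 0.10). With the batch number as a linear covariate Tufm (-0.58, FDR-adjusted p = 0.0130) and Gfm1 (-0.39, FDR-adjusted p = 0.0462) fell.

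Of 15 genes for ribosome assembly and ribosomal RNA handling the median was -0.07. The RNA helicase gene Dhx30 (-0.42, SE 0.13), the GTPase gene Eral1 (-0.25, SE 0.12) and the methyltransferase gene Nsun4 (-0.21, SE 0.07) were lower at an unadjusted p under 0.05, and the assembly factor gene Malsu1 was higher (0.24, SE 0.12). For 13 genes of mitochondrial aminoacyl-tRNA synthesis the median was -0.12, with Ears2 (-0.34) and Aars2 (-0.20) lower and Gatc (0.18) higher at that threshold. The 5 mitoribosomal proteins with other names in the table had a median of 0.0044, and none passed an unadjusted p of 0.05. Among these, Dap3, of the small subunit, was at -0.10 (SE 0.07). With the batch number as a linear covariate Dap3 fell by 0.25 (FDR-adjusted p = 0.0327), as did Dhx30 (-0.59, FDR-adjusted p = 0.0130), Nsun4 (-0.24), the methyltransferase gene Mrm2 (-0.45) and the tRNA synthetase genes Hars2 (-0.44) and Nars2 (-0.56).

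The classes nearest to the mitoribosomal genes in direction were larger in size. Of 91 nuclear-encoded oxidative phosphorylation genes 78 were higher, 45 of them at an unadjusted p under 0.05, with a median of 0.22. Of 78 cytosolic ribosomal protein genes 76 were higher, 56 at that threshold, with a median of 0.28. The table also holds 8 mitochondrially encoded transcripts, of which 6 are messages translated by the mitoribosome, while mt-Rnr1 and mt-Rnr2 are its ribosomal RNAs. With batch as categories all 8 were higher with a median of 0.54, but none passed an unadjusted p of 0.05. Their direction turned without batches 3 and 4 and EXT mouse 1, where 1 of 8 was higher (median -0.10), and in males, where 0 of 8 were (median -0.17). With the batch number as a linear covariate the median was 2.23 and all 8 passed FDR correction. None of the 8 is translated on the tagged cytosolic ribosomes.

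**Figure D5:**
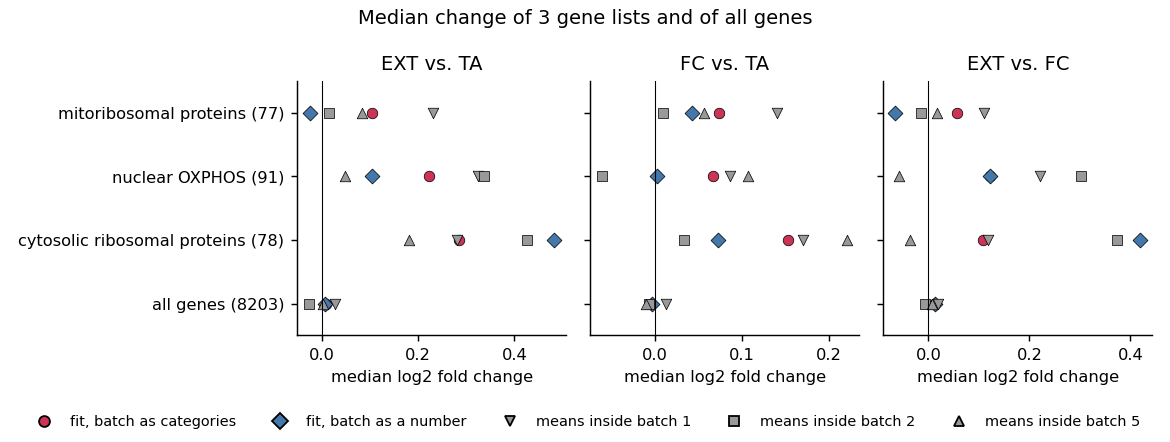
Median log2 fold change (horizontal axes) of mitoribosomal, oxidative phosphorylation and cytosolic ribosomal protein genes and of all genes (vertical axis) in each of the 3 comparisons, from the fit with batch as categories, the fit with the batch number, and the differences of means inside batches 1, 2 and 5. In EXT vs. TA with batch as categories the medians are 0.10, 0.22 and 0.28 for the 3 gene groups and 0.01 for all genes, and for mitoribosomal genes the fit with the batch number lies at -0.03.

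The counting behind single genes has a limit in the genome itself. By the GENCODE M21 annotation 25 of the 77 genes share exon bases with another gene, 21 of them on the opposite strand, and whether reads were counted by strand is not given in the sources used here. Processed pseudogenes of Mrps36, Mrpl48 and Mrpl23 could take a share of their reads.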

How the data were processed

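Ribosome-associated RNA was measured by TRAP-seq in 44 mice. Per the labels and the methods, Trimmomatic 0.36 was used for trimming and STAR for mapping to GRCm38. The authors then built gene counts, filtered them in edgeR on a minimum cpm in every library, dropped outlying libraries and applied limma voom. The deposited values are log2 cpm with an offset of 0.5 reads, scaled to effective library sizes. They carry no stated correction for batch. Every one of the 44 columns was used as deposited log2 cpm. Whole reads were recovered for all 360932 of 360932 values (within 0.1 read). Library sizes were 12802113 to 20440351 reads, and errors are given between mice, which include counting error.

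Group, sex and batch came from the labels. Mouse numbers follow accession order and pair no samples. Each comparison was fitted on its groups with lmFit and eBayes of limma 3.58.1 (R 4.3.3), with batch as categories and sex as covariates, two-sided, with Benjamini-Hochberg adjustment over 8203 genes and an FDR threshold of 0.05. Fits were tested on simulated data. Female vs. male used all mice, and sex interactions used the same terms. p-values describe the spread between mice. Shares of variance are from single-factor fits. Coding lengths and overlaps came from GENCODE M21, promoters from RefSeq, and no protein table was used. Python 3.11.15, numpy 2.4.6 and pandas 2.3.3 were also used.

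The genes, gene lists and tests were chosen with earlier results of these data known. Named genes were the 6 with the smallest p in each comparison between groups, 3 for sex, the 3 highest and 3 lowest per coding length, and 19 genes by role. Genes called in other fits, named beside small counts or picked for extreme batch differences were chosen after their values were seen. Alternatives, described in the closing part, varied the batch coding, filters, scaling, weights, covariates and libraries.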

Additional observations from a re-analysis of the deposited data

How the results depend on the processing

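Fits were repeated with batch as a number, with no batch term, with all 3 groups together, with a mean log2 value of at least 5, with median-centred or quantile-normalized samples, with trended and robust eBayes, with array weights, with voom weights, with an offset of 5 reads, with library size or a mitochondrial transcript and Malat1 score as covariate, without batches 3 and 4, and in each sex. A further 4 settings were added after the data were seen. These were batch as a number with library size, leaving out batches 3 and 4 with EXT mouse 1, leaving out each mouse, and differences of means inside batches. In EXT vs. TA voom weights from the recovered reads left 0 genes past the FDR threshold and 22 at an unadjusted p under 0.05. No paired analysis was possible because the replicate numbers follow accession order and mark no shared litter, cage or day. Of 623 values for single genes, 565 kept their direction and side of the threshold, 15 passed it newly and 43 changed sign. The lowest count of a mitoribosomal gene was 126 reads. Causes of the changes were not tested.

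In EXT vs. TA, 11 genes were FDR-significant with batch as a number, 10 with no batch term and 2 without batches 3 and 4 and EXT mouse 1. Genes at an unadjusted p under 0.05 numbered 11 with array weights, 2 with library size, 6 in males, 9 in females, 12 without batches 3 and 4 and with batch as a number, and 0 with batch as a number and library size. Among all 8203 genes, 408 were higher and 616 lower at that threshold in males, 672 and 461 in females, and 147 and 237 with library size. Where a count in this part has no count of all genes beside it, it describes the setting and not the mitoribosomal genes. The median was -0.026 with batch as a number, -0.023 with no batch term and -0.026 with batch as a number and library size. Leaving out a mouse gave 0 to 5 FDR-significant genes, 7 to 25 at an unadjusted p under 0.05 and medians of 0.06 to 0.14.

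In FC vs. TA, genes at an unadjusted p under 0.05 numbered 2 with batch as a number, 1 with no batch term, 4 with all groups together, 11 with the mitochondrial score, 13 in females and 1 with batch as a number and library size, where the median was -0.0038. Among all genes, 346 were higher and 507 lower at that threshold with batch as a number, and 669 and 541 in females. Leaving out a mouse gave 7 to 11 genes and medians of 0.06 to 0.09, with 0 FDR-significant.

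In EXT vs. FC the same count was 9 with batch as a number, 6 with no batch term, 1 with all groups together, 2 with array weights, 1 in males, 1 in females, 2 without batches 3 and 4 and with batch as a number, and 2 without EXT mouse 1 and batches 3 and 4. Among all genes, 902 were higher and 685 lower with batch as a number, 387 and 334 in males, and 44 and 73 in females. The median was -0.065 with batch as a number, -0.043 with no batch term, -0.0028 with library size and -0.091 with batch as a number and library size. Leaving out a mouse gave 0 to 1 genes and medians of 0.0076 to 0.10.

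For female vs. male, no batch term gave 9 FDR-significant genes, 39 at an unadjusted p under 0.05 and a median of -0.19. Batch as a number gave 12 at an unadjusted p under 0.05, and array weights gave a median of 0.019. Among all genes, 1105 were higher and 1250 lower in females at that unadjusted threshold with no batch term, and 415 and 590 with batch as a number.

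Signs of single genes changed in EXT vs. TA with batch as a number for Mrpl12 (-0.019), Mrpl11 (-0.10), Mrps12 (-0.013), Mrpl44 (-0.095), Mrps16 (-0.016), Mrps34 (-0.20) and Mrps18b (-0.034). With no batch term they changed for Mrpl12 (-0.0065), Mrpl11 (-0.082), Mrpl44 (-0.088), Mrps16 (-0.013), Mrps34 (-0.19) and Mrps18b (-0.0089). With batch as a number and library size they changed for Mrpl12 (-0.041), Mrpl11 (-0.10), Mrps12 (-0.075), Mrps16 (-0.030) and Mrps34 (-0.16). In males they changed for Mrpl10 (-0.05), Mrpl44 (-0.025), Mrps7 (-0.056), Mrps34 (-0.026) and Mrps18b (-0.011). Mrpl4 turned to 0.015 with the mitochondrial score, 0.0096 in females and 0.033 without batches 3 and 4 and EXT mouse 1, and Mrpl45 to 0.0032 and 0.018 in the first and last of these. Mrps30, at -0.0007, turned to 0.0011 with all groups together, 0.011 with centring, 0.0061 with quantile normalization, 0.056 with array weights, 0.0004 with the larger offset, 0.013 with library size, 0.030 with the mitochondrial score, 0.049 in males, 0.0063 without batches 3 and 4 and with batch as a number, and 0.052 without those batches and EXT mouse 1. With batch as a number and library size, FC vs. TA turned to -0.022 for Mrpl33 and -0.0063 for Mrpl32, and EXT vs. FC to -0.017 for Mrpl54 and -0.039 for Mrps12. With library size alone EXT vs. FC turned to -0.034 for Mrps18c.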
